A study of Mus musculus with 11 samples.

Results

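The SLAM family receptors and their adaptor SAP were taken as 7 genes, Slamf1, Slamf6, Slamf7, Cd48, Cd84, Ly9 and Sh2d1a, chosen by their gene names from the 54532 genes of the count table. All 7 were present and all 7 passed the filter on low counts, among 13129 genes that did. The cells were spleen CD8+CD44+Ly49+CD122+ T cells of mice, called CD8+ Tregs in the study, enriched on beads and sorted by flow cytometry. The study compared young with middle-aged animals (the sample labels say old) to ask how the transcriptome of these cells differs with age. Young mice were 2 to 3 months old and gave 3 male and 3 female libraries, and middle-aged mice were 10 to 12 months old and gave 2 male and 3 female libraries. All 11 libraries came from wild-type C57BL/6J animals, and the study describes each as a biologically independent sample without giving the number of animals behind it. Total counts were 6135736 in young male 1 and 8421396 in young female 1, the shallow libraries, and 15662717 to 24394532 in the other 9. The sort defines the population by surface proteins, so a library may hold several kinds of CD8+ T cell.

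SLAM receptors are immunoglobulin superfamily proteins on the surface of blood cells. Most of them bind a copy of themselves on a neighbouring cell, and they carry tyrosine switch motifs in their cytoplasmic tails. SAP, the product of Sh2d1a, is a small SH2 domain adaptor that docks on these motifs and recruits the kinase Fyn. In its absence the same motifs recruit phosphatases, and SAP deficiency causes X-linked lymphoproliferative disease. The pathway is needed for the development of natural killer T cells and other innate-like T cells and for lasting contact between T cells and B cells, and in CD8+ T cells Slamf6 is widely used as a marker of the TCF1-expressing, stem-like or memory-like state.

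The 6 receptor genes lie in 1 cluster of 365 kb on chromosome 1 (GRCm38, 171588624 to 171953170), and Sh2d1a lies on chromosome X from 42502453 to 42529330. From the proximal end the order is Ly9 (171588624 to 171607410, minus strand), Slamf7 (171632403 to 171653035, minus strand), Cd48 (171682009 to 171705258, plus strand), Slamf1 (171767127 to 171801184, plus strand), Cd84 (171839697 to 171890718, plus strand) and Slamf6 (171917515 to 171953170, plus strand). The switch motif has threonine, any residue, tyrosine, any 2 residues and then valine or isoleucine. The coding sequence of the principal transcript of each gene in the GENCODE M21 annotation was searched for it. The matches in the receptors are printed here because such sites are what joins the receptors to the adaptor. Each stretch of 18 bases is exonic coding sequence read 5′ to 3′ on the gene's own strand, and the capitals mark the tyrosine codon.
Slamf6, tyrosine codon 295 of 331, chr1:171939437-171939454, plus strand: actgtgTATgcacaagtc
Slamf6, tyrosine codon 319 of 331, chr1:171941664-171941681, plus strand: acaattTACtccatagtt
Slamf1, tyrosine codon 288 of 343, chr1:171792339-171792356, plus strand: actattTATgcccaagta
Slamf1, tyrosine codon 335 of 343, chr1:171799588-171799605, plus strand: acagttTATgccagtgtg
Ly9, tyrosine codon 587 of 654, chr1:171593912-171593929, minus strand: actccaTATgataaagtg
Ly9, tyrosine codon 625 of 654, chr1:171593438-171593455, minus strand: acaatcTACtgctctgtg
Cd84, tyrosine codon 265 of 329, chr1:171884605-171884622, plus strand: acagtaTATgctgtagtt
Cd84, tyrosine codon 300 of 329, chr1:171885601-171885618, plus strand: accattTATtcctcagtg
Slamf7, tyrosine codon 302 of 333, chr1:171636327-171636344, minus strand: acatttTATtccactgtg

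The motif occurred 2 times each in Slamf6, Slamf1, Ly9 and Cd84 and 1 time in Slamf7. In these 5 genes no more than 68 codons followed the tyrosine. Sh2d1a held 0 matches in 126 codons. Cd48 held 1 match, at codon 107 of 240, far from the end of the protein. CD48 is anchored to the membrane by a lipid and has no cytoplasmic tail in which SAP could dock.

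The receptors and SAP were read at very different levels. Counts were scaled to CPM, which sets all libraries to 1 common size, with TMM factors, and levels of different genes were compared only as CPM per kb of exon, using the exon length in the authors' table. Cd48, the ligand of the receptor CD244, stood highest with 395 ± 145 CPM per kb (SD, n = 11). Ly9, a homophilic receptor also called CD229, followed at 87.6 ± 20.2 CPM per kb. The ranges of these 2 genes did not overlap.

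Sh2d1a stood at 43.0 ± 23.3 CPM per kb, below Ly9 in 10 of 11 libraries, with overlapping ranges. Slamf7, a receptor that signals through the SAP relative EAT-2 in natural killer (NK) cells, stood at 23.9 ± 6.24 CPM per kb. It was below Sh2d1a in 9 of 11 libraries, again with overlapping ranges. Cd84, another homophilic receptor, had 15.1 ± 2.06 CPM per kb, less than Slamf7 in all 11 libraries although the ranges overlapped.

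Slamf6 had 11.4 ± 3.60 CPM per kb and was below Cd84 in 10 of 11 libraries, young male 1 being the exception. Slamf1, the founding member of the family, was the lowest of the 7 by far, at 0.726 ± 0.446 CPM per kb, and its range did not reach that of Slamf6. The order of the middle genes depended on the length used. Per kb of the longest coding transcript Sh2d1a came before Ly9 (194 ± 105 against 116 ± 26.9 CPM per kb) and was the higher in 7 of 11 libraries. On that scale Slamf7 and Cd84 had the same mean within their spread, 27.6 ± 7.19 and 27.5 ± 3.76 CPM per kb. Cd48 stayed first and Slamf1 last in all 11 libraries on both scales.

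**Figure D1:**
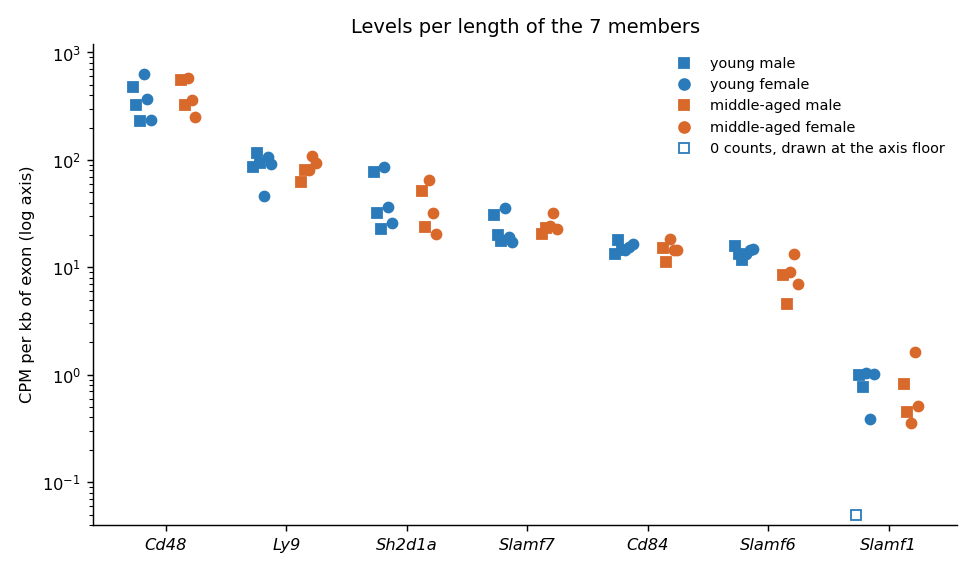
Levels of the 7 genes per kb of exon on a log axis, 1 point for each of the 11 libraries, squares for males and circles for females, blue for young and orange for middle-aged. Cd48 lies above the other genes in every library, and Slamf1 lies below them, with 1 library at 0 counts drawn as an open square at the axis floor.

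The 7 genes together held between 0.1% and 0.152% of the counts of a library. Counts were ample for 6 of the 7 genes. Slamf1 had 946 counts in all, against 19088 to 88420 for the 6 others, and 0 counts in young male 1, which allows up to 0.543 CPM (3 counts). That interval covers counting error only.

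No receptor and no SAP transcript passed the test for age. At an adjusted p under 0.05 (edgeR quasi-likelihood test, Benjamini-Hochberg over all 13129 genes) 0 of the 7 genes were called, where 3 genes in all, or 0.0229% of those tested, were called. At an unadjusted p under 0.05, 1 of the 7 was lower in middle-aged libraries and 0 were higher, beside 0.99% of all tested genes lower and 2% higher. DESeq2 called 0 of the 7 as well, beside 0.533% of all tested genes higher and 0.32% lower. Limma voom with sample weights called 1, beside 1.05% of all genes in voom. The gene was Slamf6 in edgeR's unadjusted count and in voom. By unadjusted p voom had 1 gene higher, Slamf7 (log2 fold change 0.35, adjusted p = 0.469 in voom), and 2 lower, Slamf6 and Cd84 (-0.33, adjusted p = 0.489 in voom), beside 4.8% and 4.17% of all genes.

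Slamf6 was the receptor with the largest difference relative to its error. The young males read 173, 145 and 126 CPM and the young females 145, 156 and 159 CPM. The middle-aged males read 92.2 and 49.8 CPM and the middle-aged females 98.9, 143 and 75.8 CPM. In both sexes the young libraries lay close together, and 4 of the 5 libraries from middle-aged mice read lower than any young one. The exception was middle-aged female 2, at 143 CPM, inside the young range, so the groups overlapped. Groups that did not overlap at all were seen for 1.31% of tested genes.

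The mean of Slamf6 was 150 ± 15.8 CPM in young mice (SD, n = 6) and 91.9 ± 34.1 CPM in middle-aged mice (n = 5). The fitted log2 fold change was -0.76 (SE 0.25), which is 0.590 of the young level with a 95% interval from 0.405 to 0.857. It ranked 150 of 13129 genes by p (unadjusted p = 0.00964, adjusted p = 0.843 in edgeR). Taken alone, Slamf6 thus had a mean difference whose 95% interval left out no change, and it did not pass once all genes were counted. The exact permutation test of the age labels gave p = 0.00433 (two-sided, on mean log2 CPM), where the smallest p that 6 and 5 libraries allow is 0.00216. Its adjusted p over the alternatives ran from 0.0173 in voom to 1.00.

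The direction for Slamf6 was the same in every fit run. Its log2 fold change was negative in all 25 alternative fits, between -1.08 and -0.53, and with each library left out in turn it stayed between -0.93 and -0.58 with an unadjusted p of at most 0.0331. The weakest value among those came without middle-aged male 2 and the strongest without middle-aged female 2. In males alone the log2 fold change was -1.06 (SE 0.42) and in females alone -0.53 (SE 0.32, unadjusted p = 0.140 in edgeR). The difference between the sexes itself was -0.52 on the log2 scale, with an unadjusted p of 0.307 and an adjusted p of 1.00 in edgeR.

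Voom, the only fit in which Slamf6 passed, gave a log2 fold change of -1.08 (SE 0.19, adjusted p = 0.0173). Voom weights libraries by their scatter, and middle-aged male 2, the library lowest in Slamf6, had the highest weight of all, 4.19. Young male 1 and young female 1, the libraries with the fewest counts, had the lowest weights, 0.241 and 0.209. DESeq2 gave -0.78 (SE 0.26, adjusted p = 0.189).

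**Figure D2:**
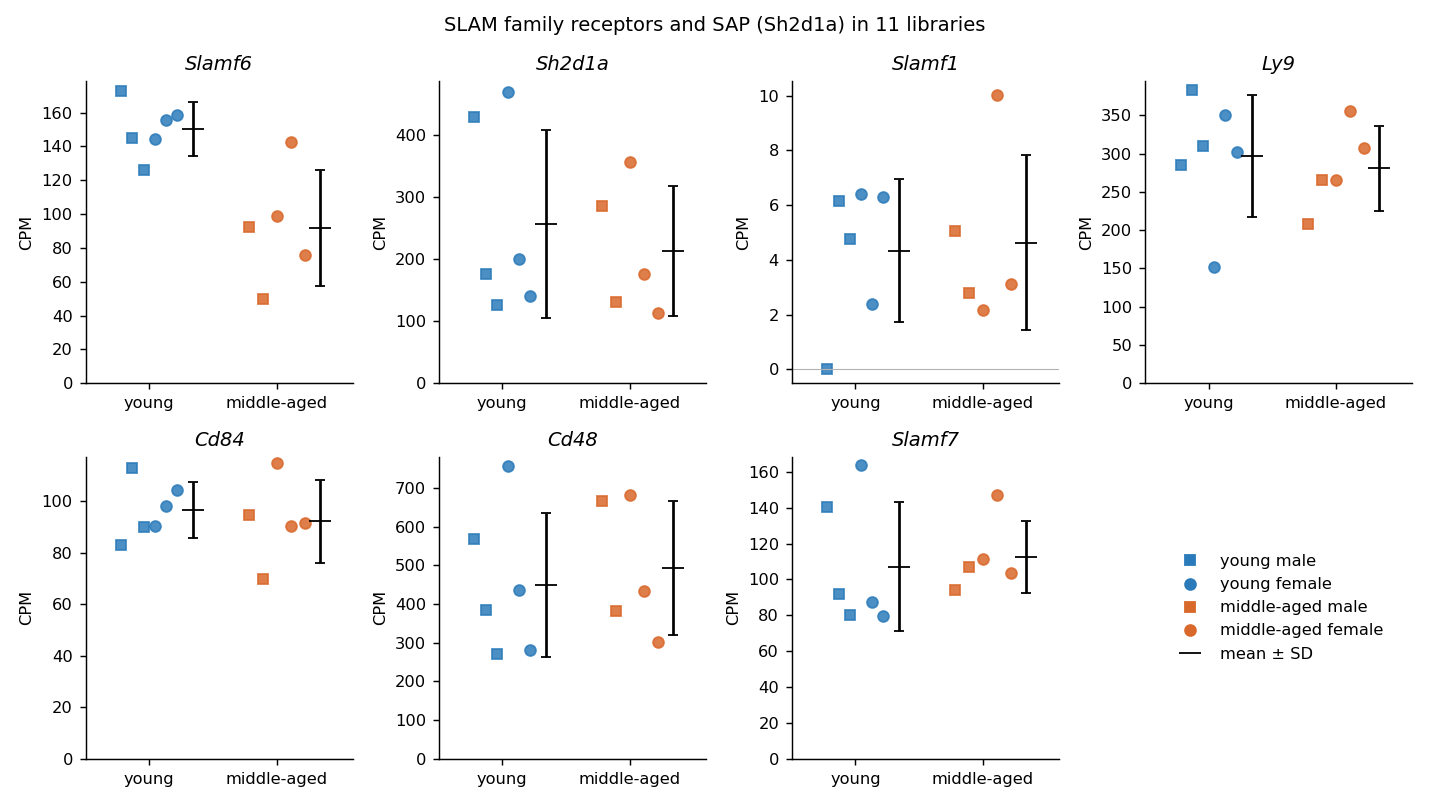
CPM of each of the 7 genes in the 6 young and 5 middle-aged libraries, 1 point per library, with the mean and SD of each age group as black bars, squares for males and circles for females. For Slamf6, 4 middle-aged libraries lie below all young ones, while for each of the other 6 genes most libraries of the 2 ages intermix.

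Genes used here as markers of other cells differed between the same libraries. The paper read NK receptor genes as transcripts of the CD8+ Tregs themselves, some higher and some lower in middle-aged mice. It also reported an NK gene signature enriched in middle-aged CD8+ Tregs. Whether the NK genes below came from NK cells or from the sorted cells was not tested. The summed level of 9 NK cell genes was between 407 and 901 CPM in young libraries (median 578) and between 101 and 586 CPM in middle-aged ones (median 159). All 9 had a negative log2 fold change, 6 of them with an unadjusted p under 0.05 in edgeR, beside 0.99% of all tested genes lower. The list holds Klra4, Klrb1a and Klrb1b, which the paper had reported as lower from these same data. It does not hold Klrk1, Klrc1, Klrc2 or Klrc3, which the paper reported as higher. The count is therefore a description. Ncr1, the defining NK marker, had a median of 72.9 CPM in young mice and 10.6 CPM in middle-aged ones and was at 0 in no library. Slamf6 is also made by NK cells, and B cells make most of the SLAM receptors. Selection on CD8 beads and the CD8+CD44+Ly49+CD122+ gate are meant to leave out both cell types. The sum of 13 B cell genes was 1521 to 2067 CPM in young mice (median 1709) and 1302 to 2428 CPM in middle-aged mice (median 1463).

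Middle-aged female 2, the middle-aged library with the highest Slamf6, also had the highest NK sum of the middle-aged group, 586 CPM. It stood apart in other lists too, with a sum of 12 myeloid genes of 2706 CPM, where the next highest, middle-aged male 1, had 335. Its sum of 7 plasma cell genes was 1359 CPM, and the median of that sum was 161 CPM in young mice and 426 CPM in middle-aged mice. The macrophage marker Csf1r ranged from 0 to 59.5 CPM over the libraries, and its 58.2 CPM in middle-aged female 2 was not the highest. The part of these cells in the Slamf6 difference was not tested, and in bulk RNA fewer cells of a type and less RNA per cell cannot be told apart. The markers of the sorted cells themselves were present throughout, with Cd3e at 533 to 984 CPM, Cd8a at 642 to 1015 CPM and Il2rb, which encodes CD122, at 552 to 2625 CPM.

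Sh2d1a, the gene of SAP, was negative in the fit as well, but its error was wide in this fit, which held no term for replicate number. It read 429, 176 and 126 CPM in the young males and 469, 199 and 141 CPM in the young females. It read 285 and 130 CPM in the middle-aged males and 357, 176 and 114 CPM in the middle-aged females. The values within one age spanned far more than the difference between the ages, and the ages overlapped. The log2 fold change was -0.28 (SE 0.44, 95% interval -1.24 to 0.68, adjusted p = 1.00 in edgeR), and the exact permutation p was 0.641.

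Levels of Sh2d1a went with the replicate number in the sample labels. The 4 libraries numbered 1 had 385 ± 80.9 CPM, the 4 numbered 2 had 171 ± 28.9 CPM and the 3 numbered 3 had 127 ± 13.8 CPM. The same was seen for Cd48, with means of 668, 409 and 285 CPM, and for the related adhesion receptor gene Cd2, with means of 1668, 905 and 626 CPM. No library numbered 1 overlapped a library of another number in any of these 3 genes.

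In an edgeR test of replicate number beside sex and age, Sh2d1a (adjusted p = 8.61e-05) and Cd48 (adjusted p = 0.000211) passed and the 5 other genes did not. That test called 26.3% of all tested genes, so 2 of 7 is near the background and says nothing particular about the family. The same numbers also order the libraries by the slope of expression on gene length, which was -0.26 to -0.09 for number 1, 0.01 to 0.09 for number 2 and 0.16 to 0.18 for number 3. The labels do not say what the number stands for.

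Age differences were therefore also read within each number. The difference in mean log2 CPM of Sh2d1a, middle-aged minus young, was -0.49, -0.30 and -0.23 within numbers 1, 2 and 3. For Slamf6 it was -0.73, -0.83 and -0.90, and for Cd48 it was 0.04, -0.01 and 0.12. Within each number every middle-aged library read lower than every young one for Slamf6, in number 2 by as little as 143 against 145 CPM, and Cd48 had no common sign. With 1 to 2 libraries per age in each number these are values with no test. In the edgeR fit with a term for number, the log2 fold change of Sh2d1a was -0.39 (SE 0.09, unadjusted p = 0.00237, adjusted p = 0.215). With a term for the gene length slope instead, it was -0.11 (SE 0.13, unadjusted p = 0.404 in edgeR). Sh2d1a had a Pearson's r of -0.96 with that slope over the 11 libraries. The size of its age difference thus depended on which of these terms the fit held.

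**Figure D3:**
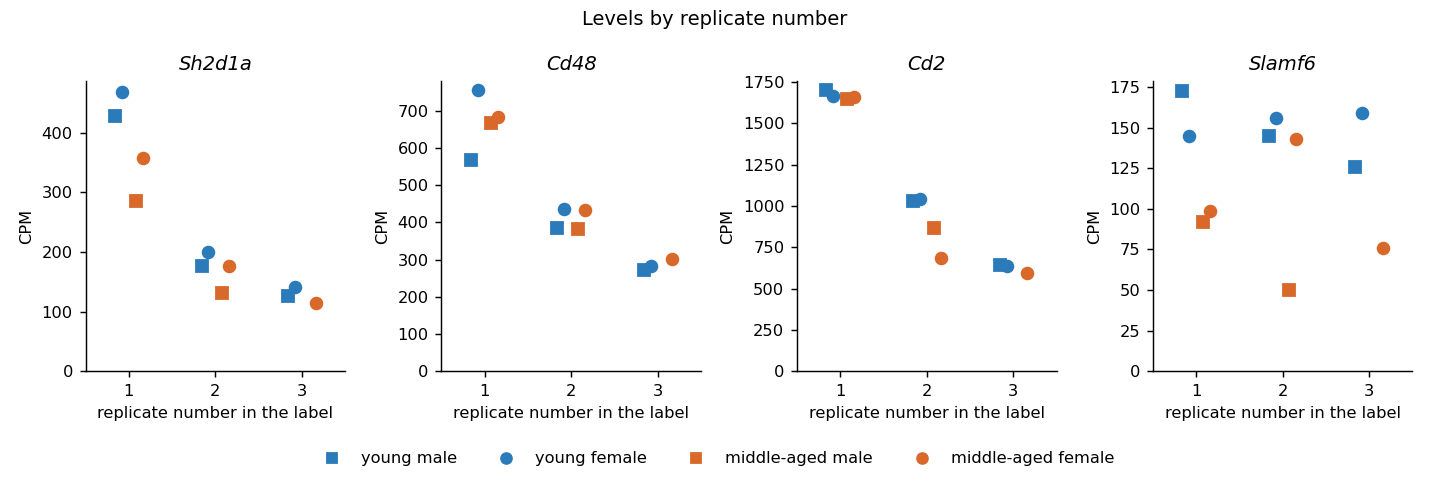
CPM of Sh2d1a, Cd48, Cd2 and Slamf6 against the replicate number in the sample label, 1 point per library, colour for age and shape for sex. Sh2d1a, Cd48 and Cd2 are highest in libraries numbered 1 and lowest in those numbered 3 in both ages, while for Slamf6 the middle-aged libraries lie below the young ones of the same number in all 3 numbers.

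Cd48, the most abundant of the 7 per length, read 567, 384 and 271 CPM in young males, 756, 437 and 282 CPM in young females, 666 and 382 CPM in middle-aged males, and 683, 434 and 301 CPM in middle-aged females. The ages overlapped. Its log2 fold change was 0.13 (SE 0.33), with a 95% interval from -0.59 to 0.85 and an exact permutation p of 0.636.

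Ly9 read 286, 383 and 310 CPM in young males and 151, 351 and 302 CPM in young females. It read 208 and 265 CPM in middle-aged males and 266, 356 and 308 CPM in middle-aged females. The single low value was young female 1, one of the 2 shallow libraries. The log2 fold change was -0.09 (SE 0.26, 95% interval -0.65 to 0.48), with an exact permutation p of 0.851.

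Cd84 was the steadiest of the 7, with a coefficient of variation of 13.7% over all 11 libraries. It read 82.8, 113 and 90.1 CPM in young males, 90.4, 97.9 and 104 CPM in young females, 94.6 and 69.8 CPM in middle-aged males, and 115, 90.1 and 91.3 CPM in middle-aged females. Both the lowest and the highest library were middle-aged. The log2 fold change was -0.08 (SE 0.19), the smallest SE of the 7 genes, with a 95% interval of the fold from 0.709 to 1.26.

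Slamf7, which marks activated and cytotoxic lymphocytes, read 141, 91.8 and 80.4 CPM in young males and 164, 87.2 and 79.5 CPM in young females. It read 94.0 and 107 CPM in middle-aged males and 111, 147 and 103 CPM in middle-aged females. The highest values were those of the shallow young libraries numbered 1 and of middle-aged female 2. The log2 fold change was 0.05 (SE 0.25, 95% interval -0.50 to 0.60), with an exact permutation p of 0.626.

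Slamf1 had the lowest level and the widest error of the 7. It read 0, 6.15 and 4.78 CPM in young males, 6.40, 2.39 and 6.28 CPM in young females, 5.04 and 2.77 CPM in middle-aged males, and 2.17, 10.0 and 3.13 CPM in middle-aged females. These are 0 to 240 counts per library. The ages overlapped, and the log2 fold change of 0.05 (SE 0.80) had a 95% interval from -1.68 to 1.79, so a difference of more than 3-fold in either direction lies within it.

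**Figure D4:**
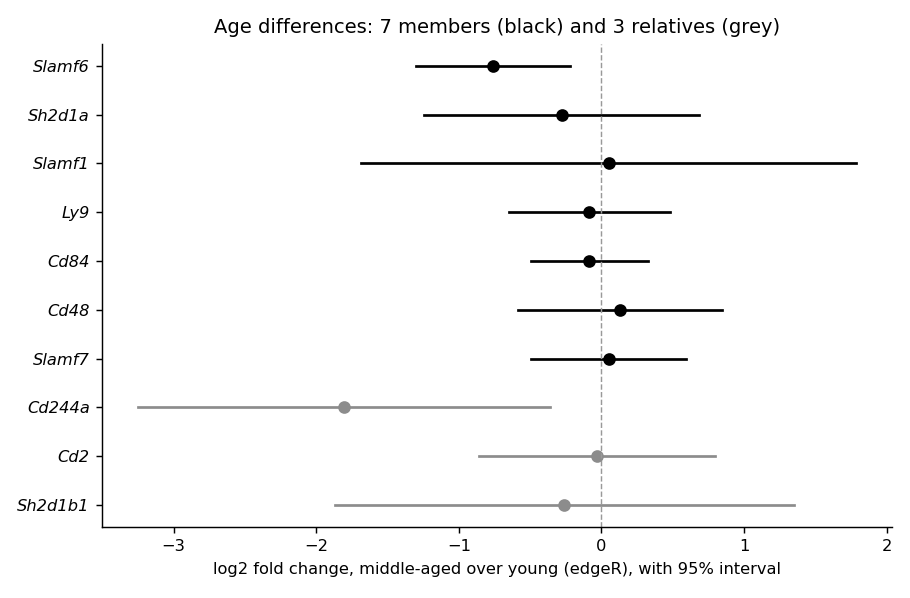
Log2 fold change of middle-aged over young with its 95% interval from the edgeR fit, in black for the 7 genes and in grey for the relatives Cd244a, Cd2 and Sh2d1b1. Only the intervals of Slamf6 (-1.30 to -0.22) and Cd244a (-3.25 to -0.36) leave out 0, and neither gene passed after adjustment over all genes.

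None of the receptors nor SAP passed the test for sex. Of the 7 genes 0 passed for sex, where 5 genes in all (0.0381% of those tested) did, and 0 passed for the age by sex interaction, where 0 genes in all did (0%). By unadjusted p, 99 genes passed for sex and 158 for the interaction, none of the 7 among them. For the X-linked Sh2d1a the log2 difference of males minus females was -0.11 (SE 0.44), and for Slamf6 it was -0.28 (SE 0.25). DESeq2 and voom likewise called 0 of the 7 for either. The share of all genes that these fits called for sex or the interaction was not taken, so their counts are a description only.

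The relatives of the family were read from the same fit. Cd244a encodes the receptor for CD48 on NK cells and some CD8+ T cells. It read 6.33, 14.4 and 27.2 CPM in young males, 27.7, 13.9 and 35.3 CPM in young females, 0.856 and 4.43 CPM in middle-aged males, and 4.34, 22.8 and 5.88 CPM in middle-aged females. As with Slamf6, 4 of 5 libraries from middle-aged mice read lower than any young one and the exception was middle-aged female 2. The log2 fold change was -1.80 (SE 0.66, unadjusted p = 0.0187, adjusted p = 1.00 in edgeR), with an exact permutation p of 0.0368. Read by number, as for Slamf6, the age differences of Cd244a were -2.69, -0.48 and -2.37 on the log2 scale. NK cells make Cd244a too, and the part of the NK genes described above in its difference was not tested.

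Cd2, whose product shares CD48 as a ligand in mice, had a log2 fold change of -0.03 (SE 0.38). Sh2d1b1, which encodes EAT-2, was at 0.139 to 4.34 CPM with a log2 fold change of -0.26 (SE 0.74). Slamf8, Slamf9 and the second EAT-2 gene Sh2d1b2 did not pass the filter on low counts.

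No signalling gene below the receptors passed the test for age. Of 25 genes that included Fyn, Lck, the phosphatases Ptpn6 and Ptpn11 and the lipid phosphatase Inpp5d, all 25 were tested. In the edgeR fit without a term for replicate number 0 passed and 0 had an unadjusted p under 0.05. With that term 0 passed by adjusted p, and 4 were higher and 0 lower by unadjusted p. Of all 13129 genes 747 were then higher and 417 lower by unadjusted p. DESeq2 also called 0, beside 0.533% of all tested genes higher and 0.32% lower, and voom called 0, beside 1.05%. Voom gave 2 as higher at an unadjusted p under 0.05, beside 4.8% of all tested genes. The median log2 fold change of the 25 in edgeR was 0.03, beside 0.00 for all tested genes, and with the term for replicate number 0.11, beside 0.05. Fyn, the kinase that SAP recruits, averaged 535 ± 164 CPM in young mice and 702 ± 166 CPM in middle-aged mice (log2 fold change 0.38, SE 0.28). Ptpn6, which encodes SHP-1, had 859 ± 180 and 810 ± 172 CPM (log2 fold change -0.07, SE 0.23).

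Slamf6 is usually read together with the TCF1 programme, so 13 genes of that memory-like state were also examined. By adjusted p 0 of the 13 passed in edgeR. At an unadjusted p under 0.05, which 0.99% of all tested genes passed as lower and 2% as higher, 3 were lower and 0 higher. They were Myb (log2 fold change -1.79, SE 0.40), a regulator of stem-like CD8+ T cells, Id3 (-1.50, SE 0.35), a partner of E proteins, and Lef1 (-0.47, SE 0.20), a relative of TCF1. Tcf7, the gene of TCF1 itself, averaged 1034 ± 382 CPM in young mice and 937 ± 307 CPM in middle-aged mice (log2 fold change -0.14, SE 0.33). DESeq2 and voom each called 2 of the 13 as lower after adjustment, beside 0.32% and 0.388% of all tested genes.

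Among 13 effector genes, 0 passed by adjusted p. By unadjusted p, which 2% of all tested genes passed as higher and 0.99% as lower, 3 were higher and 1 lower. Those higher were Id2 (log2 fold change 1.03, SE 0.21), S1pr5 (1.86, SE 0.42) and Fasl (1.64, SE 0.43), and the lower one was Gzma (-2.20, SE 0.62), which also stood in the list of NK genes. DESeq2 and voom each called 3 effector genes higher and 1 lower after adjustment, beside 0.533% and 0.663% of all tested genes higher and 0.32% and 0.388% lower. Without middle-aged female 2 edgeR called 0 effector genes higher and 1 lower, beside 1 higher and 2 lower of all 13388 genes then tested. Of 8 tested genes of innate-like T cells, Cxcr6 was higher (log2 fold change 0.82, SE 0.26) and Klrb1c lower (-0.78, SE 0.33) by unadjusted p, beside the same 2% and 0.99%. Klrb1c, like Gzma, also stood in the list of NK genes and was counted there. By adjusted p 0 of the 8 passed in that edgeR fit, and 0 in DESeq2, beside 0.533% of all tested genes higher and 0.32% lower. Voom called 1 higher and 1 lower, beside 0.663% and 0.388% of all tested genes. Of 9 tested genes of T cell help 0 passed at either p in DESeq2 or in the edgeR fit without a term for replicate number. With that term 1 was higher by unadjusted p alone, beside 747 of all 13129 genes. In voom 1 was higher by unadjusted p alone, beside 4.8% of all tested genes. The lists were chosen with results of these data known, so their counts are a description.

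The genes whose pattern over the 11 libraries was most like that of Slamf6 were Ramp1, Arxes2 and Scimp, with Pearson's r of log2 CPM of 0.969, 0.953 and 0.943. Ramp1 had a log2 fold change of -2.08 (SE 0.48, adjusted p = 0.334 in edgeR), from 32.1 to 8.32 CPM. Arxes2 and Scimp were lower in level and had log2 fold changes of -1.48 (SE 0.65) and -1.06 (SE 0.47). The genes most like Sh2d1a were Lsm3, Mrpl48 and Gmfg, with r of 0.991, 0.988 and 0.986, and they too had log2 fold changes with wide errors, between -0.34 and -0.23. The libraries share their depth and replicate numbers, which such an r also reads.

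The other tested rows within the cluster on chromosome 1 gave no further called gene. Of 13 rows other than the 6 receptors, 5 were tested. Gm37065, an antisense transcript that overlaps the first 1842 bases of Slamf6 on the opposite strand, went from 3.59 to 1.76 CPM (log2 fold change -1.13, SE 0.53, unadjusted p = 0.0540). Its 545 counts are 2.27% of those of Slamf6. Whether the counting used strand is not given in the sources used here, so reads of Slamf6 and Gm37065 cannot be told apart with certainty.

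Ly9 lies wholly inside the span of Cd244a on the opposite strand, and their annotated exons share 0 bases. Gm37787, antisense to Slamf7, had a log2 fold change of -0.11 (SE 0.58), Gm37010, within Cd48, 0.11 (SE 0.84), and the pseudogene Tma7-ps -0.49 (SE 0.74). The counts of Gm37787 were 0.718% of those of Slamf7, and the counts of Gm37010 were 0.223% of those of Cd48.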

How the data were processed

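RNA of sorted CD8+ Tregs was extracted with a column kit and made into libraries with a SMARTer kit for low input. The authors deposited counts per Ensembl gene, whole numbers without normalization, with GRCm38 coordinates. The submitters' processing notes name kallisto and mm10, the UCSC name of GRCm38, without version, and the paper names no test for differential expression of these data. Strand setting and the assignment of reads shared by genes are not given in the sources used here. All 7 genes, and 98.0% of the table's rows, had the same coordinates in GENCODE M21. The 0 identical pairs of columns, and 0 unused sample columns, left 11 libraries of 6135736 to 24394532 counts. The 2 shallow ones, young male 1 and young female 1, had 6135736 and 8421396.

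Counts were tested in edgeR 4.0.16 (R 4.3.3) with TMM factors, filterByExpr on age (minimum count 10, minimum total 15), robust glmQLFit and glmQLFTest on age beside sex, and Benjamini-Hochberg adjustment over 13129 genes at 0.05. Standard errors are the log2 fold change over the root of F. Two-sided exact permutation tests of 1 gene at a time used mean log2 CPM (prior count 2). Alternatives were DESeq2 1.42.0, limma 3.58.1 (voom with sample weights), other scalings and filters, fits without sex, with replicate number or length slope, within each sex, in the 9 deeper libraries, and without each library. The edgeR fits for age, with and without replicate number, the edgeR interaction fit, voom and DESeq2 were tested on simulated counts. The members and lists were chosen with earlier results of these data known. The test of replicate number was added after the data were seen. Named beside the 7 genes are their relatives, up to 3 genes per list with the smallest unadjusted p under 0.05, tested rows of the cluster, and the 3 genes most correlated with each of the 2 members of smallest p. Fyn, Ptpn6 and Tcf7 were named for their known roles after their values were seen. Replicates are independent biological samples per the study.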

Additional observations from a re-analysis of the deposited data

How the results depend on the processing

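Genes called for age numbered 3 in the edgeR fit. They numbered 112 in DESeq2, 138 in voom, 19 with the replicate block, 17 with at least 1 count in any library, 5 with at least 10 counts in every library, 5 without the sex term, 45 with the gene length slope term, 0 in males alone, 0 in females alone, 6 in the 9 deeper libraries, and 1 to 4 with each library left out. The 7 genes called numbered 0 in each of these except voom, with 1 (Slamf6). Called for sex or for the interaction they numbered 0 in every fit run, with the share over all genes taken in the main fit only.

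Slamf6 was negative in all 25 alternatives. The 6 other genes, none of them called, changed sign in some. Slamf1 was -0.52 in voom and -0.10 in the deep libraries, and -0.40 to 0.28 with libraries left out. Slamf7 was -0.0486 in males and -0.0556 to 0.24 with libraries left out, Cd48 -0.0466 in females and -0.0671 to 0.38, Cd84 0.0253 in females and -0.16 to 0.00485, Ly9 0.22 in females and -0.27 to 0.0478, and Sh2d1a 0.38 in the deep libraries and -0.55 to 0.0568. The cause was not tested.

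Libraries with the same replicate number deviated together with correlations from 0.03 to 0.56 over 15 pairs. Over 30 pairs of different number the correlations ran from -0.51 to 0.40. The 2 middle-aged male libraries deviate from their own mean by equal and opposite amounts. Their correlations with any other library are therefore mirrored, such as 0.32 and -0.32 with young male 1. Not all of the 15 were above 0.1, so by that rule the main fit held no term for the number, although the later test of number called 26.3% of all tested genes. Its errors therefore include the differences between numbers. With the replicate block the log2 fold change of Slamf6 was -0.81 (SE 0.22, adjusted p = 0.289 in edgeR), of Sh2d1a -0.39 (SE 0.09, unadjusted p = 0.00237, adjusted p = 0.215) and of Cd48 0.02 (SE 0.09), and the block called none of the 7. With the gene length slope term instead, Slamf6 was -0.76 (SE 0.21, adjusted p = 0.262 in edgeR) and Sh2d1a -0.11 (SE 0.13). Cd48 was then 0.23 (SE 0.10, unadjusted p = 0.0393, adjusted p = 0.640 in edgeR). Of 13 effector genes the block called 1 higher and 0 lower, and of 13 genes of the TCF1 state 0 higher and 1 lower, beside 13 higher and 6 lower of 13129. Of 8 genes of innate-like T cells the block called 1 higher and 0 lower. The exact permutation test passed for 1 of the 7 genes with a prior count of 0.5 and with library size alone too. Among single genes it was run only for the 7 and their relatives, so no share over all genes can be set beside that count. Without young male 1, the library with 0 counts of Slamf1, the SE of Slamf1 was 0.52 against 0.80.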
